A study of Homo sapiens with 6 samples.

Results

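The EGF receptor family and its ligands were followed as 10 genes, the receptors EGFR, ERBB2, ERBB3 and ERBB4 and the ligands AREG, EREG, HBEGF, TGFA, BTC and EGF. They were chosen by name, and each was read by the brightest probe set whose annotation names it and no other symbol. Such probe sets were listed for 9 of the 10, out of 18377 genes in all. Each of the 9 had a single such probe set and none shared with other symbols, so no choice among probe sets was needed. AREG had no probe set of its own in the annotation and was not analysed here. The samples were cultures of MDA-MB231, an established line from a human breast cancer that is known as mesenchymal and triple-negative (without oestrogen, progesterone or amplified HER2 receptors). In the GHSROS group the cells were transfected with pTargeT, a plasmid for expression in mammalian cells, carrying the noncoding RNA gene GHSROS (3 cultures), and in the empty-vector group they received pTargeT with no insert (3 cultures). Both groups were grown in DMEM/F12 with calf serum, penicillin and streptomycin, and the submitters describe the 3 cultures per group as biological replicates. The labels used here give neither the time between transfection and RNA extraction nor whether the cells were a pool or a clone. If the cultures were not transfected separately, the spread behind each p-value may be technical. Total RNA of each culture was hybridised to an Affymetrix Human Gene array, and all values below are log2 expression (RMA) unless stated otherwise.

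The 4 receptors are tyrosine kinases or kinase-like proteins that signal as pairs at the cell surface and feed the RAS-ERK and PI3K-AKT pathways. Their ligands are made as membrane-bound precursors, and proteases of the ADAM family release the active growth factor. EREG, HBEGF and BTC can engage EGFR or ERBB4, while TGFA, AREG and EGF act through EGFR, and ERBB2 has no known ligand of its own and works as the partner of the other receptors. Basal-like and mesenchymal breast cancer lines are known for EGFR, whereas ERBB2 and ERBB3 belong more to luminal and HER2-amplified tumours.

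The 3 ligand genes with the widest spread over the arrays, HBEGF, EREG and TGFA, are shown here with the DNA around their annotated start sites, so that the regions behind the most variable members can be read. Each run covers 250 bases before and 50 bases after the start, 5′ to 3′ on the gene's strand, from RefSeq on GRCh38.p14. Capitals mark matches on either strand to the GC box (GGGCGG or CCGCCC) and to the TATA motif (TATAAA or TTTATA), the only motifs of the 5 searched that occur in these runs.
HBEGF, chr5:140346554-140346853 (minus strand): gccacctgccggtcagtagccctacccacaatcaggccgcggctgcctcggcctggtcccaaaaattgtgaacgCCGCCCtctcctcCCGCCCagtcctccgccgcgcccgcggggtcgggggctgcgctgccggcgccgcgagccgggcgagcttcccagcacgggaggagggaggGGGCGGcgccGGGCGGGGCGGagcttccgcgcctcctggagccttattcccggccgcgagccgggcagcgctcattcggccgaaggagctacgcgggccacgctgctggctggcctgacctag
EREG, chr4:74364895-74365194 (plus strand): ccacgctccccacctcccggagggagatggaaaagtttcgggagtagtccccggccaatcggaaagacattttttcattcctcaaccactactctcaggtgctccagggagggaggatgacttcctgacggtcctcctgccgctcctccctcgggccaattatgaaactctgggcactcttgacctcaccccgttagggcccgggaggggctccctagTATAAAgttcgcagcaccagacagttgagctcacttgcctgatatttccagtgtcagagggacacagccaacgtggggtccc
TGFA, chr2:70553777-70554076 (minus strand): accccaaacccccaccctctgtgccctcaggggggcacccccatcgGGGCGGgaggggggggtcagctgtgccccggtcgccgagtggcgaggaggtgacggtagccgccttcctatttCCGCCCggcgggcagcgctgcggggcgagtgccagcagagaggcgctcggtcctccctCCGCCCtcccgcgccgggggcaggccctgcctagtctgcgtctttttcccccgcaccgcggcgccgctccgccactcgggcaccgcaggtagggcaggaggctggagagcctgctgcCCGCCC

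The HBEGF run held 5 GC boxes and the TGFA run 4, counting overlapping matches, and the last pair in the HBEGF run shares a base. EREG held no GC box and a TATA motif whose first base lies at -32 from the start. Of 35116 RefSeq promoter windows of the same length, 45% held a GC box and 11.5% a TATA motif. The GC content of the runs was 75% for HBEGF, 75.3% for TGFA and 57.7% for EREG. The other motifs searched were the AP-1 motif TGACTCA (reverse TGAGTCA, in 4.95% of windows), the CRE motif TGACGTCA (1.85%) and the ETS motif CCGGAAGT (reverse ACTTCCGG, 4.14%). RefSeq gave 11 windows for 9 of the 10 genes, with 2 windows each for EGFR and TGFA, of which the first listed for TGFA is printed. The second TGFA window held no GC box and had a GC content of 63%. Among these, the AP-1 motif lay in the second window of EGFR and in that of EGF, the CRE motif in that of AREG, at -65 from its start, and the ETS motif in that of ERBB2. A match describes letters only, and the arrays did not measure promoter activity.

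The arrays also differed among themselves within each vector. Empty-vector array 1 and GHSROS array 3 stood apart from the other 4 on the first principal component, which held 64.4% of the variance over genes. On GHSROS arrays 1 to 3 the mean of 20 mitosis genes was 11.25, 11.19 and 10.25, against 10.22, 11.03 and 11.26 on empty-vector arrays 1 to 3. The mean of 15 ATF4 stress genes was 8.85, 8.96 and 9.79 on the GHSROS arrays, against 9.76, 9.25 and 8.74 on the empty-vector arrays. The annotation used here names no probe set for GHSROS, so its own level could not be set against the labels. The mean of the 8 markers of the line ran from 11.55 to 11.65 on the GHSROS arrays and from 11.57 to 11.70 on the empty-vector arrays. Of these 8, 7 averaged above the median over all probe sets, all but SPARC, and 2 were higher and 6 lower with GHSROS. One of the 6, VIM, the mesenchymal filament gene, lay between 12.99 and 13.12 on the GHSROS arrays. On the empty-vector arrays VIM lay between 13.15 and 13.37. The steroid receptor genes ESR1 and PGR and the epithelial cadherin gene CDH1 stayed below the array medians of 6.559 to 6.648 on every array, but 7 of the 11 luminal or epithelial markers averaged above the median over all probe sets, among them the keratin genes KRT8, KRT18 and KRT19. The mean of these 11 markers ran from 7.73 to 7.84 on the GHSROS arrays and from 7.73 to 7.84 on the empty-vector arrays. List means of the leukocyte markers ran from 6.07 to 6.28 on the GHSROS arrays and from 6.20 to 6.33 on the empty-vector arrays. PTPRC, the pan-leukocyte marker, ran from 3.62 to 3.68 on the GHSROS arrays and from 3.55 to 3.62 on the empty-vector arrays. However, 2 of the 7 measured leukocyte markers averaged above the median over all probe sets. These were CD68, at 12.24 with GHSROS and 12.48 with the empty vector, and NKG7, at 7.06 and 7.03. Fibroblast markers ran from 5.63 to 5.83 on the GHSROS arrays and from 5.64 to 5.69 on the empty-vector arrays. Of these 6, COL1A1 and PDGFRB averaged above that median. Endothelial markers ran from 6.08 to 6.57 on the GHSROS arrays and from 5.92 to 6.40 on the empty-vector arrays, highest on the 2 arrays that stood apart. Of these 5, KDR and CDH5 averaged above that median. Of 37 measured marker genes of the line, luminal cells, leukocytes, endothelium and fibroblasts, 0 passed the limma test given next at an adjusted p of 0.05. An unadjusted p under 0.05 was reached by 2 (5.41%), FOXA1, a luminal transcription factor gene, at a log2 difference of 0.35 and KRT19 at -0.28, beside 1.77% of all genes. The groups did not overlap in 5 (13.5%), FOXA1, VIM, DCN, LYZ and CD79A, beside 5.51% of all genes.

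GHSROS and the empty vector were compared to ask which genes differ in level when these cells are made to express GHSROS. None of the 9 measured members passed the test. In limma, with Benjamini-Hochberg adjustment over all 18377 genes, 0 of 9 passed an adjusted p of 0.05, with an adjusted p of 1 for each. Limma also called 0 of 9 at an unadjusted 0.05, and in 0 of 9 were the GHSROS arrays wholly above or wholly below the empty-vector arrays. Over all genes the shares were 0%, 1.77% and 5.51%, so 0 of 9 lies near the background for each rule. Of the members 6 were higher and 3 lower in the GHSROS arrays, with a median log2 difference of 0.004 beside 0.002 over all genes. An exact two-sided permutation test of a single gene over 3 against 3 arrays cannot go below p = 0.1, and the members gave between 0.2 and 1.

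**Figure D1:**
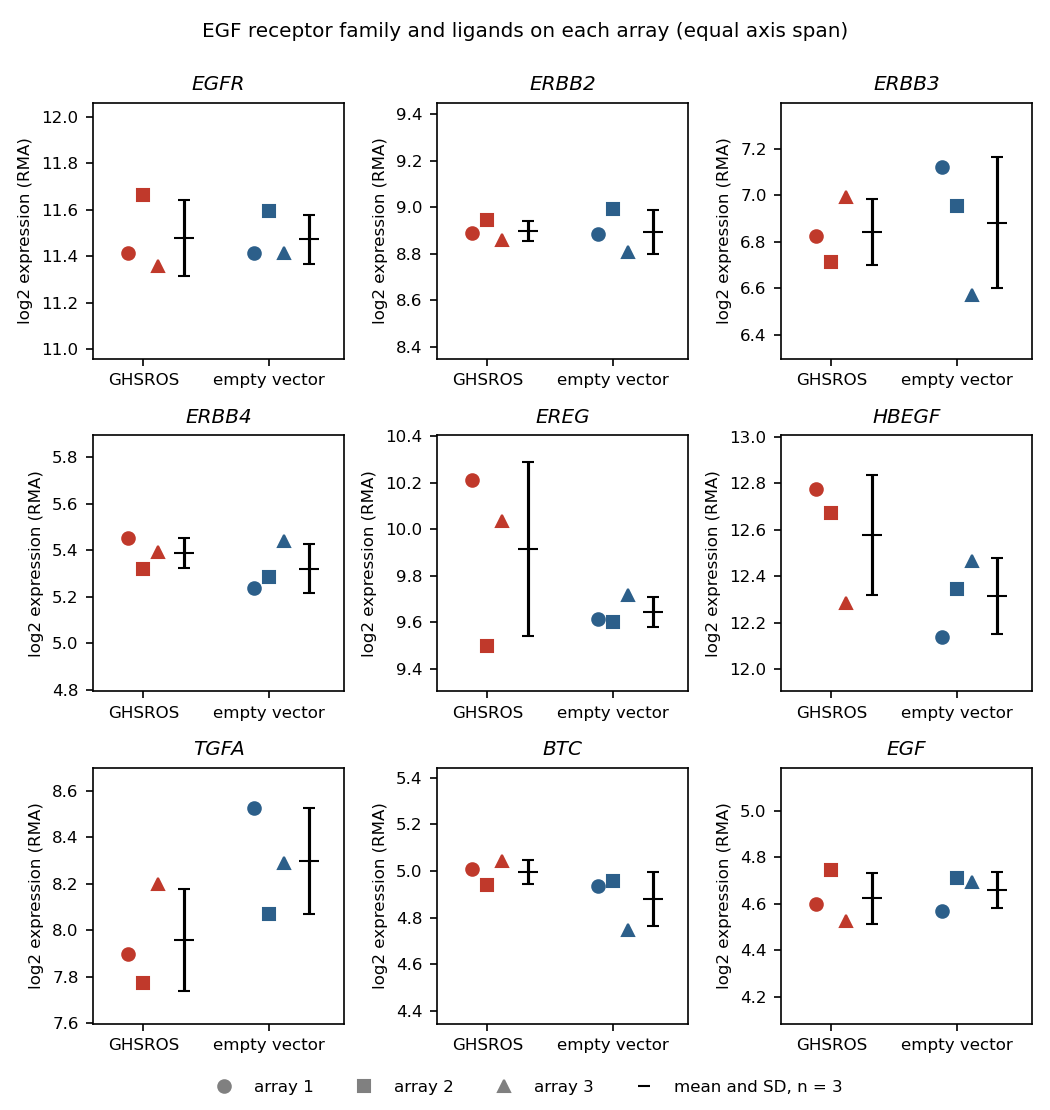
Log2 expression (RMA) of the 9 measured members on each array, GHSROS left (red) and empty vector right (blue), with marker shapes for the array number and the mean with SD (n = 3) beside each group. All panels span the same height, and EREG, HBEGF and TGFA spread over 0.714, 0.637 and 0.755 log2 units while the groups overlap in every panel.

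Among the receptors, EGFR, a receptor for all of the ligands here, stood at 11.41, 11.66 and 11.36 on GHSROS arrays 1 to 3, against 11.41, 11.59 and 11.41 on empty-vector arrays 1 to 3. Array 2 was the highest of each group, and the groups overlapped almost fully. The log2 difference was 0.004 (SE 0.11, limma), with a 95% confidence interval from -0.26 to 0.27, which as a ratio of GHSROS over empty vector runs from 0.832 to 1.21.

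ERBB2, the ligandless partner receptor also known as HER2, stood at 8.89, 8.94 and 8.86 on the GHSROS arrays, against 8.88, 8.99 and 8.81 on the empty-vector arrays. It had the narrowest range of all members, 0.188 log2 units, with both groups centred on the same level. Its difference was 0.003 log2 units (SE 0.09, limma), and the interval from -0.20 to 0.21 is also narrower than that of any other member.

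ERBB3, whose kinase domain is nearly inactive and which passes signals to PI3K through its partner, stood at 6.82, 6.71 and 6.99 on the GHSROS arrays, against 7.12, 6.95 and 6.57 on the empty-vector arrays. The empty-vector arrays spread more widely (SD 0.281, n = 3) than the GHSROS arrays (SD 0.141, n = 3) and enclosed them. Empty-vector array 1 and GHSROS array 3 were the highest of the 6, so ERBB3 ran opposite to the mitosis genes on those arrays; their part in its values was not tested. Between the vectors it differed by -0.04 log2 units (SE 0.16, limma), with an interval from -0.41 to 0.33.

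ERBB4, the receptor for neuregulins and some EGF-type ligands, stood at 5.45, 5.32 and 5.39 on the GHSROS arrays, against 5.24, 5.28 and 5.44 on the empty-vector arrays. All 6 values lay below the array medians, where differences in RMA values can be compressed, and whether ERBB4 is expressed cannot be told from them. It differed by 0.07 log2 units (SE 0.09, limma), with an interval from -0.15 to 0.29.

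Of the ligands, HBEGF, TGFA and EREG had the widest ranges of all members. HBEGF, the heparin-binding ligand that is also known from wound repair, stood at 12.77, 12.67 and 12.28 on the GHSROS arrays, against 12.14, 12.34 and 12.46 on the empty-vector arrays. GHSROS arrays 1 and 2 were the highest of the 6, but GHSROS array 3 lay below empty-vector arrays 2 and 3. Group means were 12.58 ± 0.26 with GHSROS and 12.31 ± 0.16 with the empty vector (SD, n = 3 each). The log2 difference of 0.26 (SE 0.15), or 1.20-fold, had a 95% confidence interval from 0.930-fold to 1.54-fold and gave p = 0.3 in the exact permutation test.

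TGFA, the ligand named for its discovery as a transforming factor, was the member with the largest difference. It stood at 7.90, 7.77 and 8.20 on the GHSROS arrays, against 8.53, 8.07 and 8.29 on the empty-vector arrays. GHSROS arrays 1 and 2 were the lowest of the 6, and the groups overlapped because GHSROS array 3 lay above empty-vector array 2. Group means were 7.96 ± 0.22 with GHSROS and 8.30 ± 0.23 with the empty vector (SD, n = 3 each). The log2 difference was -0.34 (SE 0.16), or 1.27-fold lower, with an interval for the ratio from 0.610 to 1.02 and gave p = 0.2 in the exact permutation test.

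The differences of HBEGF and TGFA had opposite signs, and both ligands took extreme values on the arrays that stood apart. In each vector group HBEGF was lowest and TGFA highest on the array that stood apart, GHSROS array 3 and empty-vector array 1. Mitosis genes were lowest and ATF4 stress genes highest on the same arrays; their part in the ligand values was not tested. Without both of these arrays HBEGF differed by 0.32 (SE 0.12) and TGFA by -0.35 (SE 0.13), each with the remaining 2 arrays per group apart, as in 25.3% of all genes under this omission. With all 6 arrays the differences were 0.26 for HBEGF and -0.34 for TGFA. Neither gene passed limma's adjusted test in either fit. Single arrays moved both values by over 1.5 times: HBEGF differed by 0.41 without GHSROS array 3, by 0.16 without GHSROS array 1 and by 0.17 without empty-vector array 1, and TGFA by -0.22 without empty-vector array 1.

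**Figure D2:**
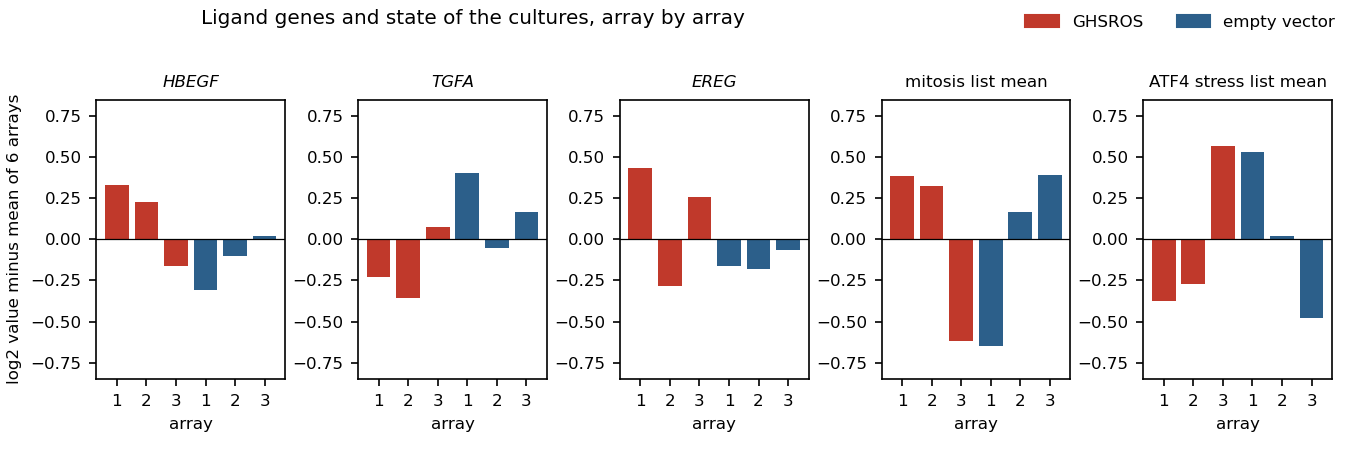
HBEGF, TGFA and EREG and the means of the mitosis and ATF4 stress lists on each array, as log2 values minus the mean of the 6 arrays, GHSROS arrays in red on the left and empty-vector arrays in blue on the right. GHSROS array 3 and empty-vector array 1 hold the lowest mitosis means (10.25 and 10.22), and within each vector the lowest HBEGF and the highest TGFA.

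EREG, epiregulin, stood at 10.21, 9.50 and 10.04 on the GHSROS arrays, against 9.62, 9.60 and 9.72 on the empty-vector arrays. The GHSROS arrays held both the highest and the lowest values of the 6, with an SD of 0.372 beside 0.0634 for the empty-vector arrays (n = 3 each). The log2 difference was 0.27 (SE 0.18), or 1.21-fold, with an interval from 0.895-fold to 1.63-fold and gave p = 0.4 in the exact permutation test. On empty-vector array 1, which stood apart, EREG lay between its values on the other empty-vector arrays. Single arrays moved the difference: without GHSROS array 2 it was 0.48 (SE 0.11, limma adjusted p = 1), with the groups apart as in 13.7% of all genes under this omission, and without GHSROS array 1 it was 0.12.

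BTC encodes betacellulin and stood at 5.01, 4.94 and 5.04 on the GHSROS arrays, against 4.93, 4.96 and 4.75 on the empty-vector arrays. Empty-vector array 3 was the lowest and the other 5 lay close together. The log2 difference was 0.12 (SE 0.09, limma), and it was 0.05 without empty-vector array 3. EGF, the founding ligand of the family, stood at 4.60, 4.74 and 4.53 on the GHSROS arrays, against 4.57, 4.71 and 4.70 on the empty-vector arrays, a log2 difference of -0.04 (SE 0.10, limma). BTC and EGF both lay below the array medians on every array, so small differences in them may be compressed.

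**Figure D3:**
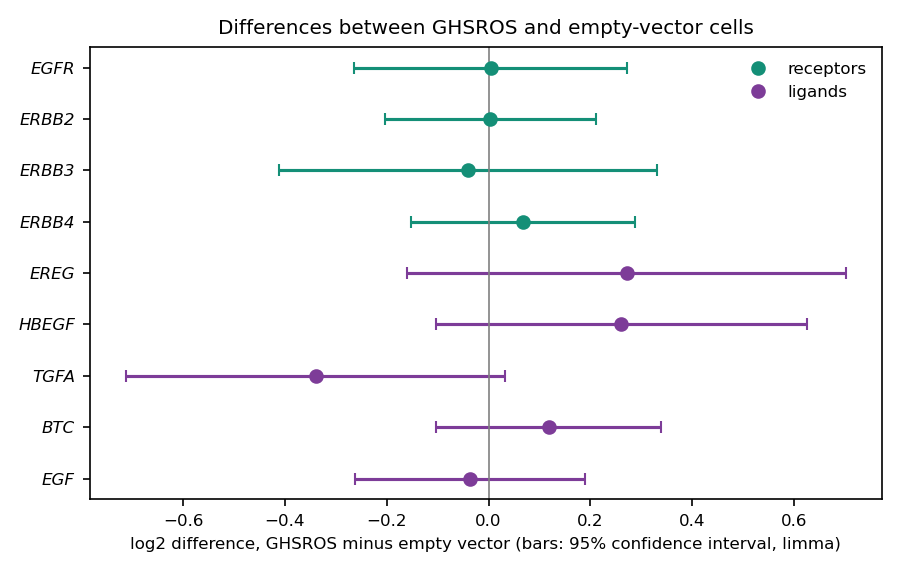
Log2 difference of each member, GHSROS minus empty vector, with the 95% confidence interval from limma, receptors in green and ligands in purple. The intervals of all 9 members include 0, and TGFA at -0.34, EREG at 0.27 and HBEGF at 0.26 lie farthest from it.

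The members ranged widely in the size of their differences. A larger absolute log2 difference was found in 1.74% of all genes for TGFA, 3.37% for EREG and 3.71% for HBEGF, against 23.5% for BTC, 46.8% for ERBB4, 66.2% for ERBB3, 69.6% for EGF, 96.3% for EGFR and 96.8% for ERBB2. The median absolute log2 difference was 0.068 over the members and 0.063 over all genes. Over the 6 arrays, the difference between the vectors included, a larger SD was found in 14.2% of all genes for TGFA, 13.3% for EREG and 18.7% for HBEGF. For EGFR and ERBB2 these shares were 60.6% and 92.1%. Leaving out both arrays that stood apart kept the differences of EGFR, ERBB2, ERBB3, ERBB4 and EGF between -0.03 and 0.03, with EREG at 0.20 and BTC at 0.12. No member ranged over 1 log2 unit across the arrays, so no gene was matched to a member by its pattern.

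The genes around the receptors were read from 6 lists with 81 of 91 genes measured, 36 higher and 45 lower in the GHSROS arrays, at a median log2 difference of -0.01. In limma 0 of the 81 passed the adjusted test, and 2 (2.47%), NRG1 and SPHK1, had an unadjusted p under 0.05, beside 1.77% of all genes. The groups did not overlap in 8 (9.88%), NRG4, SHC1, AKT2, SOCS5, EPN1, SH3KBP1, SPHK1 and MYC, beside 5.51% of all genes. Of these, NRG4 lay between 3.33 and 3.71 on every array, below the array medians, and SH3KBP1 differed by only -0.04 (SE 0.08).

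The other ligands of the family, EPGN and the neuregulins, counted 2 of 5 higher and 3 lower, and 0 passed. NRG1, a ligand of ERBB3 and ERBB4, had the smallest unadjusted p of these and stood at 8.86, 8.65 and 8.47 on the GHSROS arrays, against 8.82, 9.31 and 9.27 on the empty-vector arrays. GHSROS array 1 lay above empty-vector array 1, so the groups overlapped, and the log2 difference was -0.47 (SE 0.17, limma adjusted p = 1). It is larger in size than that of any of the 9 members. NRG3 differed by 0.06 (SE 0.09). EPGN, the neighbour of EREG and AREG on chromosome 4, lay between 3.29 and 3.43 on every array and differed by 0.02 (SE 0.09). NRG3 and EPGN both lay below the array medians on every array, so small differences in them may be compressed.

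Among genes that cut ligands free or bring the proteases to the surface, 4 of 12 were higher and 8 lower, and 0 passed. ADAM9, a metalloprotease of the shedding family, differed by 0.08 (SE 0.08), and FRMD8, which stabilises the complex of iRhom and the sheddase ADAM17, by -0.11 (SE 0.15). RHBDF1, the iRhom 1 gene that carries ADAM17 to the surface, was picked after its values were seen, as the pathway gene with the widest range. It stood at 8.86, 9.19 and 10.04 on the GHSROS arrays, against 10.10, 9.42 and 8.88 on the empty-vector arrays. The arrays that stood apart were the highest in each vector, and the log2 difference was -0.11 (SE 0.39).

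Adaptors and the RAS-ERK relay had 8 of 13 higher and 5 lower, with KSR1, a scaffold of the ERK cascade, at 0.31 (SE 0.22) and the MEK gene MAP2K2 at -0.09 (SE 0.11). The PI3K, PLC and STAT relay had 8 of 12 higher and 4 lower, with the PI3K subunit gene PIK3CB at 0.09 (SE 0.10). AKT2, a kinase downstream of PI3K, stood at 10.73, 10.78 and 10.52 on the GHSROS arrays, against 10.80, 10.92 and 11.02 on the empty-vector arrays. The groups were apart by a narrow margin, and the log2 difference was -0.24 (SE 0.11, limma adjusted p = 1). None of the genes of either list passed.

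Receptor inhibitors and endocytosis genes had 8 of 21 higher and 13 lower, and 0 passed. SOCS5, a suppressor that targets EGFR for degradation, was 9.53, 9.60 and 9.64 on the GHSROS arrays, against 9.43, 9.43 and 9.35 on the empty-vector arrays, a difference of 0.19 (SE 0.08). EPN1, an endocytic adaptor, differed by -0.20 (SE 0.09), with the groups also apart. Genes that ERK signalling is known to induce had 6 of 18 higher and 12 lower, and 0 passed. SPHK1, which makes sphingosine-1-phosphate, was 8.80, 9.01 and 8.72 on the GHSROS arrays, against 8.60, 8.45 and 8.64 on the empty-vector arrays. These groups did not overlap, and the difference was 0.28 (SE 0.11, limma adjusted p = 1). MYC, the growth transcription factor, differed by -0.15 (SE 0.09), with the groups also apart by a narrow margin.

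**Figure D4:**
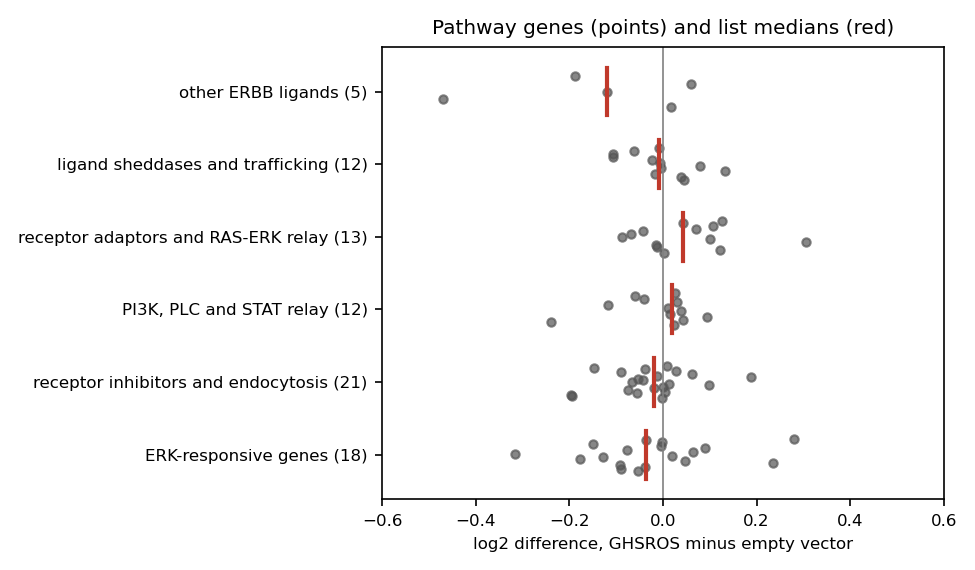
Log2 difference, GHSROS minus empty vector, of each measured gene (points) in the 6 lists around the receptors, with the number of genes in brackets and the list median in red. The medians lie between -0.12 and 0.04, and no gene reaches 0.5 in either direction.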

How the data were processed

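Total RNA of 6 MDA-MB231 cultures, 3 with GHSROS in pTargeT and 3 with empty pTargeT, was labelled with biotin and hybridised to 6 Affymetrix Human Gene arrays, and groups and replicate numbers come from the sample titles. The authors deposited log2 values for each probe set, made with RMA, as the submitters' processing notes state without a version. Its settings and any filter were not given in the sources used. RMA as commonly run quantile normalizes arrays, which removes a shift common to most genes. Array values carry no read depth, so the number of arrays limits the precision. All 6 columns were used, with 0 missing values.

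Of 28869 probe sets, 19310 were paired with a single symbol by the platform annotation, 1752 with several and 7807 were not listed there. Only probe sets with a single symbol were used, and the brightest per symbol gave 18377 genes. Limma 3.58.1 in R 4.3.3 (lmFit and eBayes with the vector as the single term, two-sided, Benjamini-Hochberg over all genes, threshold 0.05) gave differences as GHSROS minus empty vector. The script was tested on simulated data. Text names all members and, per list, the gene with the smallest p in each direction or an unadjusted p under 0.05. For members ranging over 1 log2 unit, the 3 genes nearest in pattern were to be named. Pathway genes whose groups did not overlap were named after their values were seen. Members and lists were chosen with earlier results of these data known. The alternatives were the replicate block, 2 normalizations, 2 level filters, 3 probe set rules, an intensity trend, array weights and omitted arrays.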

Additional observations from a re-analysis of the deposited data

How the results depend on the processing

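No member, pathway gene or other gene passed an adjusted p of 0.05 in limma under any of the 17 alternatives, with single arrays left out or not, and the members' adjusted p lay between 0.923 and 1. HBEGF, EREG and TGFA kept their direction under all 17, and ERBB4 and BTC under the 15 in which they were tested, since the filter at the median level and that at the 25th percentile left them out, as they did EGF. The median filter also left out ERBB3. Median centring turned EGFR to -0.0075 and ERBB2 to -0.00803, array weights turned them to -0.0386 and -0.0371, and leaving out both arrays that stood apart turned ERBB3 to 0.0053. With single arrays left out EGFR ranged from -0.0889 to 0.0648, ERBB2 from -0.0408 to 0.053, ERBB3 from -0.195 to 0.0795, EGF from -0.0961 to 0.0119, ERBB4 from 0.03 to 0.13, BTC from 0.05 to 0.16, TGFA from -0.46 to -0.22, HBEGF from 0.16 to 0.41 and EREG from 0.12 to 0.48. The number of members at an unadjusted p under 0.05 was 0 in the reported fit, 1 with median centring, 1 with array weights, 2 without both arrays that stood apart and 0 to 2 with single arrays left out. Members whose groups did not overlap numbered 2 without both arrays and 0 to 2 with single arrays left out, where fewer arrays separate more easily: 25.3% of all genes did so without both arrays and 10.4% to 17.2% with single arrays left out. Of the pathway genes, 2 had an unadjusted p under 0.05 in the reported fit. The count was 0 with the replicate block, 4 after quantile normalization and 1 with probe sets of a gene averaged. It was 3 with every probe set tested, 3 with array weights and 3 without both arrays that stood apart. With single arrays left out it was 0 to 2. Same-numbered arrays did not all deviate alike: their deviations from the group mean correlated at -0.714, 0.504 and -0.669 across genes. Higher values came from unlike numbers, 0.831 for GHSROS array 3 with empty-vector array 1 and 0.738 for GHSROS array 1 with empty-vector array 3. The remaining pairs of unlike numbers lay between -0.55 and 0.272. Deviations within a group depend on one another, so these values cannot tell whether same-numbered cultures were handled together. With the replicate block 0 members passed an adjusted or an unadjusted threshold of 0.05 in limma. Using only probe sets with a single symbol is the reported fit itself.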
